A study of Mus musculus with 9 samples.

Results

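The 10 genes described here encode ligands, receptors and direct targets of the Notch pathway, and were chosen by symbol: Dll1, Dll4, Jag1, Jag2, Notch1, Notch2, Notch4, Hes1, Hey1 and Nrarp. All 10 were found once each among the 52183 genes of the table, and all 10 had a mean of at least 1 FPKM (fragments counted, corrected for gene length and library depth) over the 9 libraries, the filter that left 11796 genes for testing. Messenger RNA came from endothelial cells of the bone marrow, isolated by flow cytometry from the long bones of mice whose vessels had been marked in vivo through VE-cadherin, a junction protein of endothelium. The 9 libraries fall into 3 groups of 3: Young Control mice of 3 months, Aged Control mice of 18 months, and mice of 18 months whose genotype is given as Aged Thbs1 knockout. Thbs1 is the gene of thrombospondin-1, a matrix protein that cells secrete. The labels name no strain, no allele, no Cre driver and no treatment that sets the groups apart, and whether the libraries of a group are separate mice is not said, so the p-values measure only how these libraries spread, which may be technical.

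Notch is a signalling system of cell contact. A ligand of the Delta-like or Jagged family on one cell binds a Notch receptor on its neighbour, the receptor is cut by an ADAM protease and then by gamma-secretase, and the freed intracellular part joins the DNA-binding protein RBPJ in the nucleus to switch on genes such as the repressors Hes1 and Hey1. In blood vessels the pathway guides sprouting and arterial identity, and endothelial Notch ligands in the marrow are known to act on blood stem cells.

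The depth recovered from the FPKM values was 22160000 to 30400000 fragments per library. It was 22160000 to 24590000 in the control groups and 27230000 to 30400000 in the knockout-labelled libraries. These are estimates, and the fragments summed over genes came to more, such as 23493883 against 22160000 in aged control replicate 1. The targeted gene went against its label: Thbs1 was at 3.89 to 4.55 FPKM in the young controls, 0.67 to 1.17 FPKM in the aged controls and 19.45 to 25.63 FPKM in the knockout-labelled libraries, so every direction drawn from that label below refers to the label alone. All 7 pan-endothelial markers examined (Cdh5, Pecam1, Kdr, Tek, Emcn, Erg and Tie1) were present, with a summed level of 1103 to 1132 FPKM in the young controls, 909.4 to 1060 FPKM in the aged controls and 1010 to 1183 FPKM in the knockout-labelled libraries. Ptprc, the pan-leukocyte gene, stood at 0.03 to 0.13 FPKM. Knockout-labelled replicate 2 had the sinusoidal marker Fcgr2b at 180.85 FPKM, against 41.97 and 47.76 FPKM in replicates 1 and 3. Dnase1l3 went the same way, at 122.41 against 76.75 and 70.55 FPKM. The other sinusoidal markers did not set it apart. Stab1 was at 71.82 against 75.20 and 74.42 FPKM, Stab2 at 268.26 against 381.18 and 279.06 FPKM, and Flt4 at 154.20 against 150.05 and 151.20 FPKM. The 5 sinusoidal markers summed to 701.5 to 759.0 FPKM in the young controls, 925.1 to 1088 FPKM in the aged controls and 623.0 to 797.5 FPKM in the knockout-labelled libraries. Of them, Fcgr2b and Dnase1l3 were lower in the knockout-labelled libraries than in the aged controls (limma adjusted p = 0.0352 and 0.0415). Stab1, Stab2 and Flt4 were not called there, with log2 differences of -0.03, 0.10 and -0.17 (limma adjusted p = 0.877, 0.692 and 0.435). The part of sinusoidal cells in the Notch values of that comparison was not tested. In such bulk samples, fewer cells of a type and less RNA per cell cannot be told apart.

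**Figure D1:**
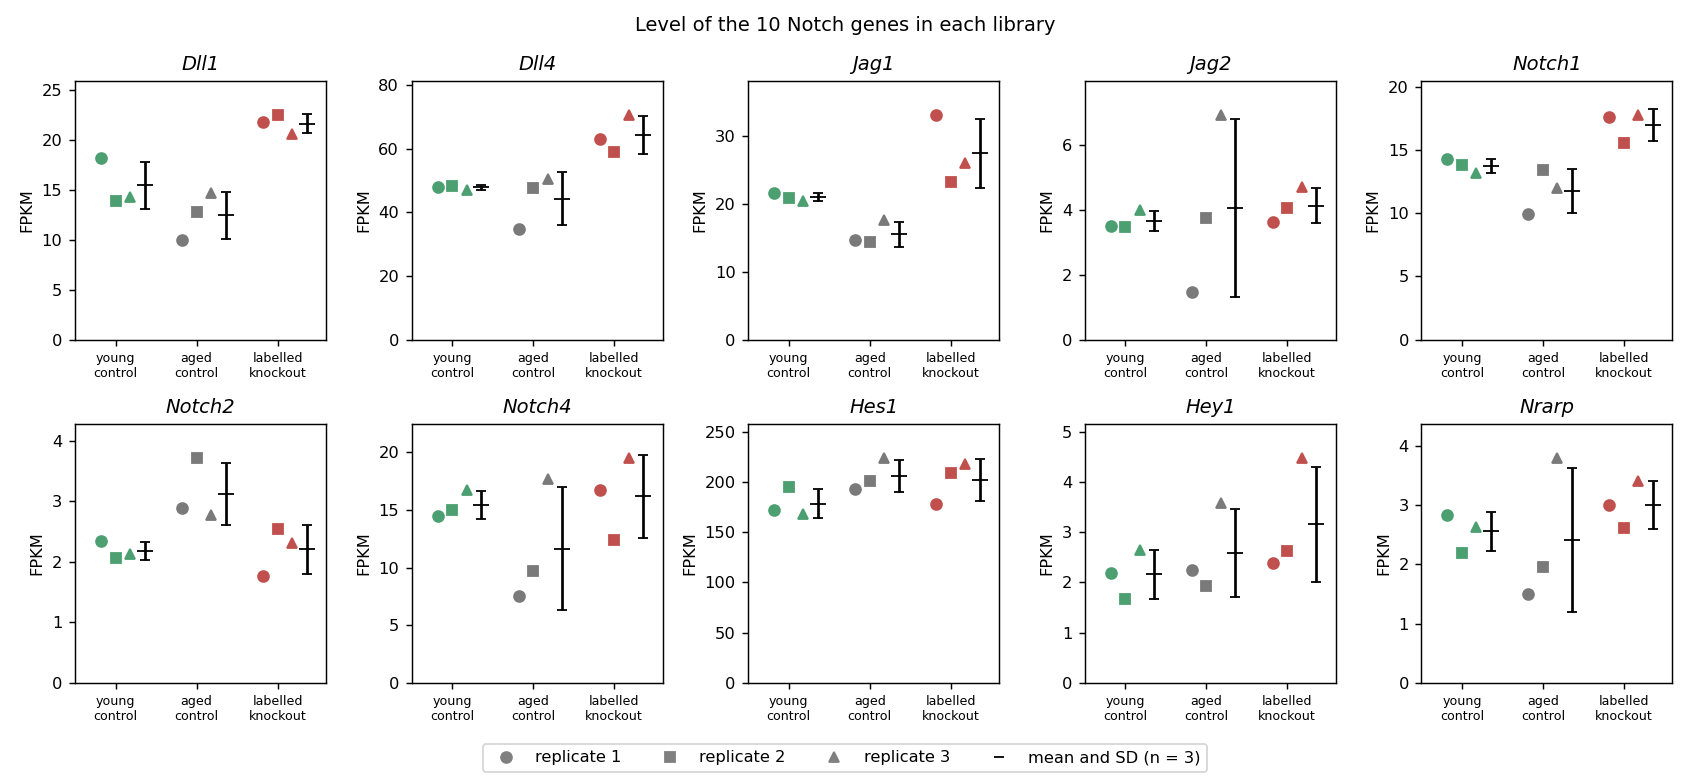
FPKM of each of the 10 Notch genes in the 9 libraries, by group, with 1 point per library and the mean and SD of each group (n = 3) beside the points; each panel has its own axis starting at 0. Dll1, Dll4, Jag1 and Notch1 are higher in all 3 knockout-labelled libraries than in any aged control, while Hes1 runs from 168.47 to 223.91 FPKM with the groups mixed.

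Setting the knockout-labelled libraries against the aged controls asks what differs with the labelled genotype at 18 months, and it held the only calls among the 10 genes. Jag1 and Dll1, both ligands, and the receptor Notch1 rose, by 1.77, 1.74 and 1.44 times in mean FPKM. The ligand Dll4 stood 1.45 times higher but just missed the threshold, and the target genes Hes1, Hey1 and Nrarp did not pass. Of the 10 genes, 3 were higher and none lower at an adjusted p under 0.05 (limma on log2(FPKM + 1), Benjamini-Hochberg over all 11796 genes). Over all genes tested, 2.78% were higher and 2.01% lower. In 5 of the 10 genes the groups did not overlap, against 23.2% of all genes tested. The median log2 difference was 0.39 over the 10 genes and 0 over all genes tested, and 8 of the 10 had a positive sign. Under median-ratio scaling and quantile normalization the median of the 10 was 0.38 and 0.37. This comparison and the one of age share the 3 aged controls, so their values are not independent of each other.

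The starts of the 4 genes that lay above all aged controls are shown here because these genes were higher together in the knockout-labelled libraries. The sequences are RefSeq promoters on GRCm38.p6, from 250 bases before to 50 bases after the start site, printed 5′ to 3′ on the gene's own strand. Such windows were at hand for 8 of the 10 genes, and Hes1 and Hey1 had none. Capitals mark matches on either strand to an N box (CACNAG, a motif bound by Hes proteins) or to the NF-kB motif. Positions count from the start site, with -1 the base before it.
Jag1 (chr2:137116471-137116770, minus strand): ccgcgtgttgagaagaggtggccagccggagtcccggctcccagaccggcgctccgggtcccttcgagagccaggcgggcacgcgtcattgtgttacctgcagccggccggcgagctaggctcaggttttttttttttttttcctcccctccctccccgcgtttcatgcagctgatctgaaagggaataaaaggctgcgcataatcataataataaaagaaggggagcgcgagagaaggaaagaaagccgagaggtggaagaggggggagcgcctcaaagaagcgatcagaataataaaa
Dll1, downstream start (chr17:15375774-15376073, minus strand): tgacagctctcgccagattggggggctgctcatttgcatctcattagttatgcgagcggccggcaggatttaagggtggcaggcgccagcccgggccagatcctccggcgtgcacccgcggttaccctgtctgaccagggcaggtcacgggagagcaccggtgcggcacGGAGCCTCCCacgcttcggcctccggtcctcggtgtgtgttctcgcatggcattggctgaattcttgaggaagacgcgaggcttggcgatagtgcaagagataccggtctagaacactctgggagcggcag
Dll1, upstream start (chr17:15376883-15377182, minus strand): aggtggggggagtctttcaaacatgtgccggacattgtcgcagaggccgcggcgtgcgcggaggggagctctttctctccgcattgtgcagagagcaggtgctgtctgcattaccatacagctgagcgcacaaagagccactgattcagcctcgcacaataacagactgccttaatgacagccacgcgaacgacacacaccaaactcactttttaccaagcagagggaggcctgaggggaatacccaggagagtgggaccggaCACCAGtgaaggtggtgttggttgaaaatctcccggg
Notch1 (chr2:26503773-26504072, minus strand): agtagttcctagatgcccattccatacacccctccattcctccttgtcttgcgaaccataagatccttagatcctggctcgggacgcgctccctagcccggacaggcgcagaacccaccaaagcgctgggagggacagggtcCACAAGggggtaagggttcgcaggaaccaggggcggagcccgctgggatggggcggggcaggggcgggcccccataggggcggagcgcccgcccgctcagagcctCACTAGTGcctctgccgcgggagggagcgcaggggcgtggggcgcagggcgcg
Dll4 (chr2:119325534-119325833, plus strand): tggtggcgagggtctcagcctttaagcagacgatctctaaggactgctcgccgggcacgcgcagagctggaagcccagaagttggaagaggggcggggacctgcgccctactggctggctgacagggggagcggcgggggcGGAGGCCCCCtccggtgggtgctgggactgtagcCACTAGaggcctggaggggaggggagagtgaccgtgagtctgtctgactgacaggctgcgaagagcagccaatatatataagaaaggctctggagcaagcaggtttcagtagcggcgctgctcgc

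No motif searched was present in all 4 genes, and the Jag1 window held none. Dll1 had an NF-kB match at -81 of its downstream start and an N box at +14 of its upstream start, Dll4 had an NF-kB match at -109 and an N box at -75, and Notch1 had N boxes at -108, -3 and -1, the last pair overlapping on opposite strands. The core of the RBPJ site (TGGGAA, either strand) was in none of the 9 windows of the 8 genes, and an E box (CACGTG, its own reverse complement) was in that of Nrarp alone, at -108. Over all 32851 windows of the table, 25.6% held the RBPJ core, 42.5% an N box, 7.15% the E box and 8.46% the NF-kB motif. A match or its absence describes these letters within 300 bases only.

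Among the ligands, Jag1 (ENSMUSG00000027276, GRCm38 chromosome 2, 137081456 to 137116644), a Jagged ligand of endothelial and perivascular cells, gave the clearest pattern. It was at 21.62, 20.82 and 20.46 FPKM in the young controls, 14.62, 14.34 and 17.63 FPKM in the aged controls, and 33.14, 23.29 and 26.05 FPKM in the knockout-labelled libraries. The 3 groups did not overlap in any pairing: the aged controls were lowest, the young controls between, and the knockout-labelled libraries highest. Mean levels came to 21.0 ± 0.594, 15.5 ± 1.82 and 27.5 ± 5.08 FPKM in young controls, aged controls and knockout-labelled libraries (SD, n = 3). The rise from the aged controls to the knockout-labelled libraries had a log2 fold change of 0.78 ± 0.132 (SE, limma adjusted p = 0.0126), and the exact permutation test (two-sided) gave p = 0.1, the smallest value possible with 3 against 3. The Jag1 call held whichever 1 of the 9 libraries was left out (adjusted p = 0.00674 to 0.0403). It was lost without the filter on low values (adjusted p = 0.0586) and in the fit of the compared groups alone (adjusted p = 0.0667).

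Dll1 (ENSMUSG00000014773, chromosome 17, 15367354 to 15376872), a Delta-like ligand, was at 18.16, 13.88 and 14.30 FPKM in the young controls, 9.95, 12.74 and 14.64 FPKM in the aged controls, and 21.77, 22.50 and 20.58 FPKM in the knockout-labelled libraries. Young and aged controls overlapped, and all 3 knockout-labelled libraries lay above both. The mean went from 12.4 ± 2.36 to 21.6 ± 0.969 FPKM (SD, n = 3), a log2 fold change of 0.76 ± 0.144 (SE, limma adjusted p = 0.0201). The knockout-labelled libraries were the tightest group for Dll1, with a coefficient of variation of 4.48% against 15.3% and 19.0% in the young and aged controls. The call was lost without knockout-labelled replicate 1 or 3 (adjusted p = 0.0774 and 0.0573), without the filter (0.0849) and in the fit of the compared groups alone (0.0584). Dll1 shares 867 exonic bases with A930024N18Rik, a long non-coding RNA on the opposite strand that was not analysed here, and no strand setting is given, so reads of the pair cannot be told apart.

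Dll4 (ENSMUSG00000027314, chromosome 2, 119325784 to 119335962), the Delta-like ligand that restrains vessel sprouting, was the most abundant of the 4 ligands in every library. It was at 47.94, 48.34 and 47.07 FPKM in the young controls, 34.73, 47.76 and 50.35 FPKM in the aged controls, and 63.00, 59.00 and 70.64 FPKM in the knockout-labelled libraries. All 3 knockout-labelled libraries were above the 6 controls, and replicate 1 of the aged controls was below all others. The difference from the aged controls, 0.54 ± 0.135 on the log2 scale (95% interval 0.24 to 0.84), did not pass the threshold (limma adjusted p = 0.0522). It passed without aged control replicate 3 (0.041) or knockout-labelled replicate 2 (0.0432), with a filter of at least 5 FPKM (0.0416), after quantile normalization (0.0496) and with limma voom on recovered fragments (0.0427). Dll4 lies 1.2 Mb from Thbs1. Of the 33 genes tested within 2 Mb of Thbs1, with Dll4 counted and Thbs1 left out, 6 were called in this comparison (4 higher, 2 lower). This was 18.2%, against 4.79% of all genes tested. Jag1, Notch1 and Nrarp are on the same chromosome, at 18.95, 91.6 and 92.93 Mb from Thbs1. Dll4 also shares 214 exonic bases with Gm14207, a transcript of the opposite strand that reached 8.73 FPKM.

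Jag2 (ENSMUSG00000002799, chromosome 12, 112907819 to 112929776), the other Jagged ligand, was the least abundant ligand and the most uneven gene of the 10. It was at 3.50, 3.49 and 4.02 FPKM in the young controls, 1.46, 3.76 and 6.95 FPKM in the aged controls, and 3.63, 4.06 and 4.72 FPKM in the knockout-labelled libraries. The aged controls alone spanned a 4.76-fold range that contained all other libraries. The difference between the knockout-labelled libraries and the aged controls was 0.18 ± 0.332 (SE) on the log2 scale, with a 95% interval of -0.57 to 0.92 (limma adjusted p = 0.786), which leaves room for a change as large as that of Jag1.

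Summed per length, the 4 ligands came to 91.22, 86.53 and 85.85 FPKM in the young controls, 60.76, 78.60 and 89.57 FPKM in the aged controls, and 121.54, 108.85 and 121.99 FPKM in the knockout-labelled libraries. The knockout-labelled libraries were above all 6 controls (exact permutation p = 0.1 against each group, two-sided, the smallest possible). Dll4 made up 51.8% to 60.8% of it, Jag1 18.2% to 27.3%, Dll1 16.0% to 20.7% and Jag2 2.40% to 7.76% over the 9 libraries. The order Dll4, Jag1, Dll1, Jag2 held in all 9 libraries, with Jag1 and Dll1 closest in aged control replicate 2, at 14.34 and 12.74 FPKM, and in knockout-labelled replicate 2, at 23.29 and 22.50 FPKM.

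**Figure D2:**
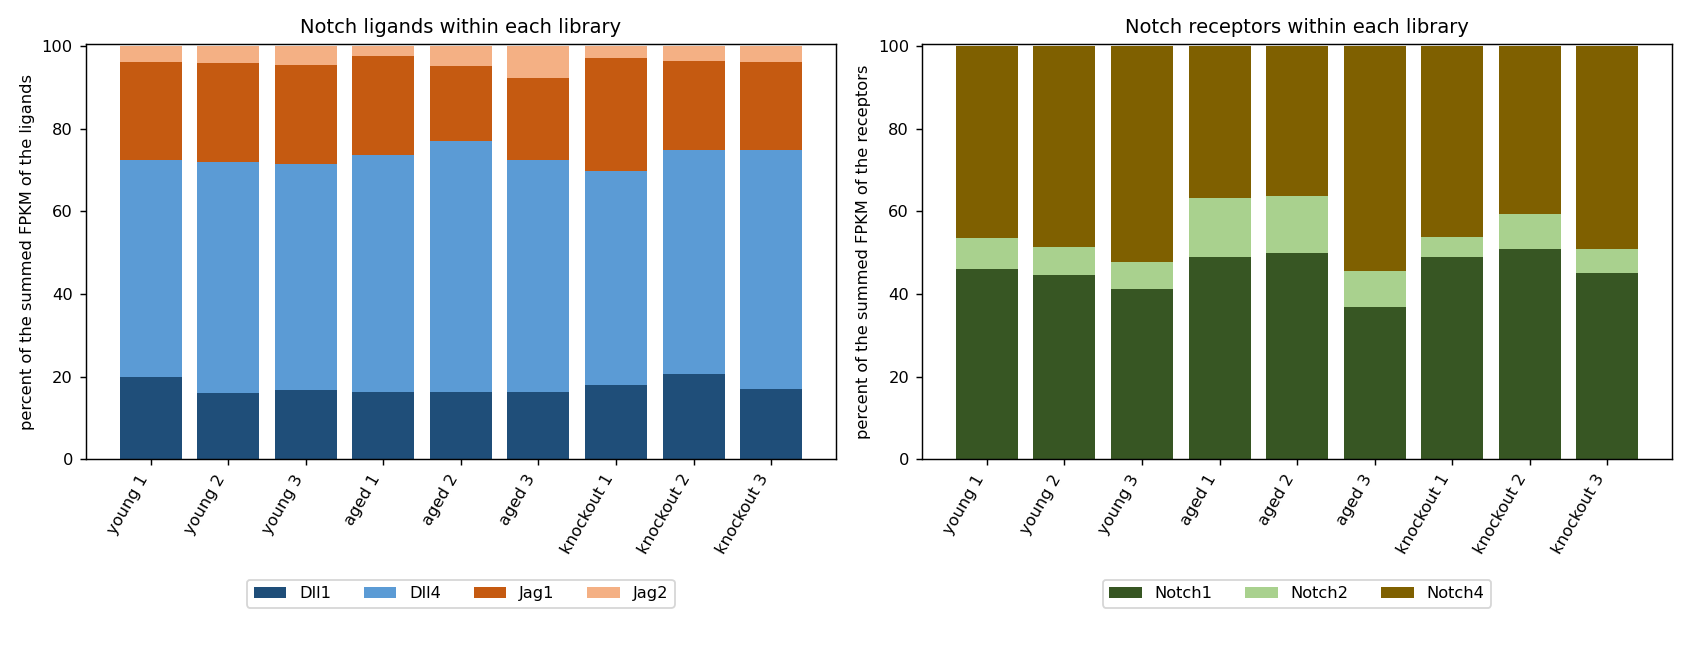
Share of each gene in the summed FPKM of the 4 Notch ligands (left) and of the 3 Notch receptors (right), in percent, with 1 bar per library. Dll4 makes up 51.8% to 60.8% of the ligands throughout, and Notch2 has its largest shares of the receptors, 14.2% and 13.8%, in aged control replicates 1 and 2.

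Among the receptors, Notch1 (ENSMUSG00000026923, chromosome 2, 26457903 to 26516663), the receptor best known from arterial endothelium, was at 14.33, 13.81 and 13.21 FPKM in the young controls, 9.97, 13.44 and 11.98 FPKM in the aged controls, and 17.67, 15.55 and 17.82 FPKM in the knockout-labelled libraries. The knockout-labelled libraries were above all 6 controls, and the controls overlapped. The mean went from 11.8 ± 1.74 to 17.0 ± 1.27 FPKM (SD, n = 3), a log2 fold change of 0.50 ± 0.114 (SE, limma adjusted p = 0.0385). This was the least stable of the 3 calls. With 1 library left out, it was kept in 2 of 9 fits, those without aged control replicate 2 and without knockout-labelled replicate 2. It was lost without young control replicates 1, 2 and 3 (adjusted p = 0.0724, 0.0746 and 0.0717), aged control replicates 1 and 3 (0.0625 and 0.0601) and knockout-labelled replicates 1 and 3 (0.14 and 0.132), without the filter (0.112) and in the fit of the compared groups alone (0.139). Notch1 shares 1068 exonic bases with 0610009E02Rik and 414 with Gm13568, transcripts of the opposite strand that reached 0.83 and 0.59 FPKM.

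Notch2 (ENSMUSG00000027878, chromosome 3, 98013527 to 98150361), a receptor that B cells and macrophages also express, had the opposite sign. It was at 2.34, 2.06 and 2.13 FPKM in the young controls, 2.89, 3.72 and 2.78 FPKM in the aged controls, and 1.76, 2.55 and 2.31 FPKM in the knockout-labelled libraries. All 3 aged controls were above the other 6 libraries. Neither difference passed the test: it was 0.37 ± 0.14 (SE) with age (limma adjusted p = 0.128) and -0.37 ± 0.14 (SE) between the knockout-labelled libraries and the aged controls (adjusted p = 0.151). The ratio of Notch1 to Notch2 within a library, which no scaling of libraries changes, was 6.12, 6.70 and 6.20 for the young controls, 3.45, 3.61 and 4.31 for the aged controls, and 10.0, 6.10 and 7.71 for the knockout-labelled libraries. The aged controls were below all others (exact permutation p = 0.1, two-sided, against each group, the smallest possible). Notch1 and Notch2 had already been seen to differ in sign, so this ratio is no separate support. The ratios of Dll4 to Jag1, Dll4 to Dll1 and Hes1 to Hey1 did not set the aged controls apart from both other groups. The 7 B-lineage and plasma cell markers, of which Ms4a1 was at 0.15 FPKM or less, summed to 4.64 to 394.4 FPKM in the young controls, 413.5 to 2393 FPKM in the aged controls and 3.65 to 1643 FPKM in the knockout-labelled libraries, with the immunoglobulin gene Igkc making up most of the large sums. The 7 monocyte and macrophage markers, none at 0, summed to 207.5 to 255.9, 182.6 to 209.4 and 171.1 to 178.2 FPKM, and Mrc1 made up most of these sums. Lyz2, C1qa and C1qb had their highest mean in the aged controls, as Notch2 did: 26.5, 35.2 and 20.2 FPKM for Lyz2, 4.19, 6.57 and 3.84 FPKM for C1qa, and 9.68, 13.3 and 7.12 FPKM for C1qb in young controls, aged controls and knockout-labelled libraries. The rest of that list did not: Csf1r, Adgre1 and Mrc1 had their highest mean in the young controls. Their means were 1.33, 0.68 and 172 FPKM there, against 1.10, 0.637 and 130 FPKM in the aged controls. Cd68 had its lowest mean in the aged controls, at 13.1, 11.3 and 13.3 FPKM in young controls, aged controls and knockout-labelled libraries. The part of B-lineage, plasma, monocyte or macrophage cells in the Notch2 values was not tested.

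Notch4 (ENSMUSG00000015468, chromosome 17, 34564268 to 34588503), a receptor largely restricted to endothelium, was at 14.44, 15.02 and 16.75 FPKM in the young controls, 7.50, 9.71 and 17.70 FPKM in the aged controls, and 16.72, 12.37 and 19.51 FPKM in the knockout-labelled libraries. The groups overlapped, with aged control replicates 1 and 2 below all other libraries and replicate 3 above every young control. The difference between the knockout-labelled libraries and the aged controls was 0.50 ± 0.259 (SE, limma adjusted p = 0.267), close to that of Notch1 but with a wider interval, -0.07 to 1.08. Without aged control replicate 3 it was 0.83 and passed (adjusted p = 0.045). Over the 9 libraries Notch1 and Notch4 were present at similar levels, 14.2 and 14.4 FPKM on average, and their order differed from library to library. Notch2 averaged 2.50 FPKM and was the lowest receptor in every library.

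None of the 3 target genes passed the test. Hes1 (ENSMUSG00000022528, chromosome 16, 30064384 to 30067796), a repressor of the basic helix-loop-helix class, was the most abundant of the 10 genes in every library. It was at 171.87, 194.88 and 168.47 FPKM in the young controls, 192.84, 200.67 and 223.91 FPKM in the aged controls, and 178.07, 208.56 and 218.35 FPKM in the knockout-labelled libraries. The groups overlapped in all 3 pairings. The difference between the knockout-labelled libraries and the aged controls was -0.03 ± 0.109 (SE) on the log2 scale (limma adjusted p = 0.89), and its 95% interval, -0.28 to 0.21, lies below the estimates for Jag1, Dll1 and Notch1. As a percentage of the summed ligands of the same library, which no scaling changes, Hes1 came to 188%, 225% and 196% for the young controls, 317%, 255% and 250% for the aged controls, and 147%, 192% and 179% for the knockout-labelled libraries. The aged controls were above all 6 other libraries (exact permutation p = 0.1, two-sided, against each group, the smallest possible).

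Hey1 (ENSMUSG00000040289, chromosome 3, 8663359 to 8667256), a related repressor, was at 2.18, 1.66 and 2.64 FPKM in the young controls, 2.25, 1.92 and 3.58 FPKM in the aged controls, and 2.38, 2.62 and 4.48 FPKM in the knockout-labelled libraries. Nrarp (ENSMUSG00000078202, chromosome 2, 25180758 to 25183339), a small feedback inhibitor of the receptor, was at 2.84, 2.20 and 2.64 FPKM in the young controls, 1.50, 1.96 and 3.80 FPKM in the aged controls, and 3.00, 2.61 and 3.41 FPKM in the knockout-labelled libraries. The groups of both genes overlapped. Their differences between the knockout-labelled libraries and the aged controls were 0.21 ± 0.228 and 0.28 ± 0.218 (SE, limma adjusted p = 0.612 and 0.462), with 95% intervals of -0.30 to 0.72 and -0.21 to 0.77. These intervals hold both no change and one as large as that of Notch1. Hey1 rests on 124 to 398 fragments per library and Nrarp on 86 to 241, against 8007 to 12915 for Hes1.

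**Figure D3:**
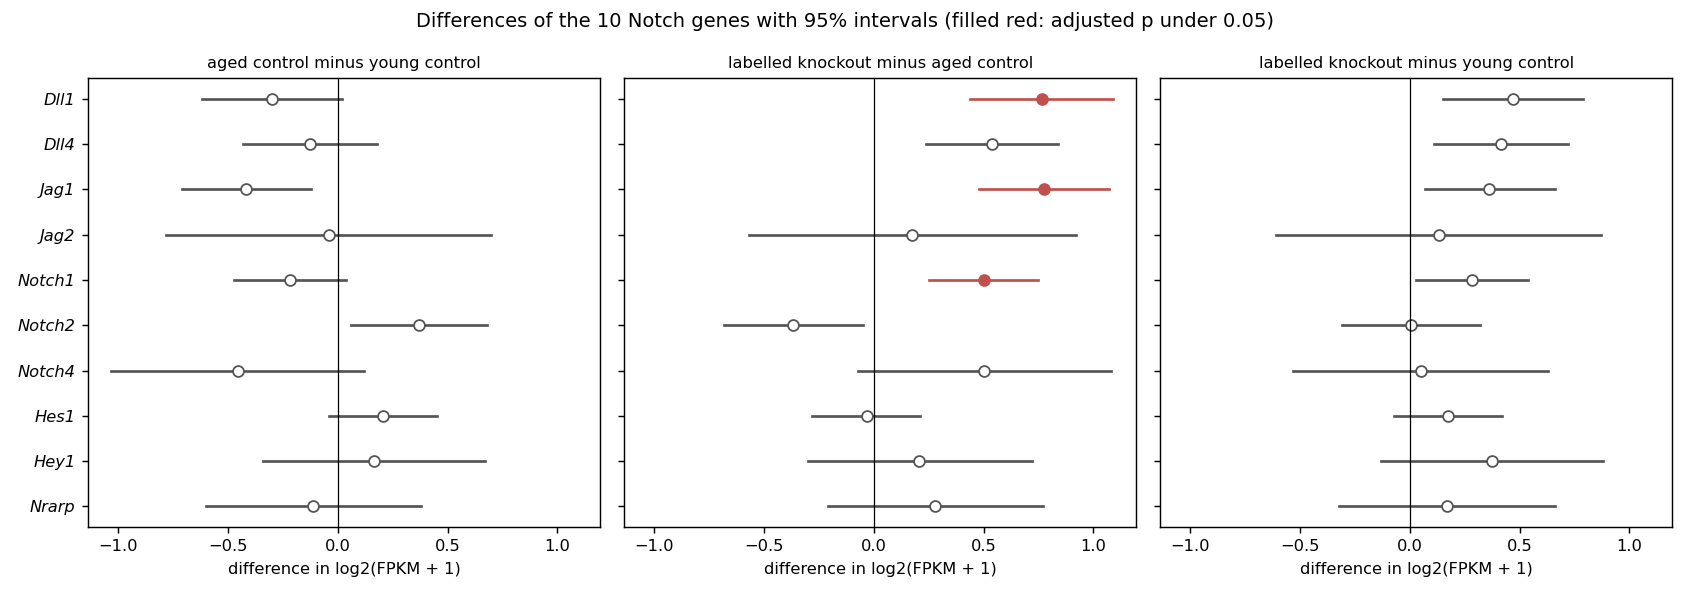
Difference in log2(FPKM + 1) of each Notch gene in the 3 comparisons, with the 95% interval from limma; filled red points passed an adjusted p of 0.05. The passing genes are Jag1, Dll1 and Notch1, all in the comparison of the knockout-labelled libraries with the aged controls.

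Aged against young controls asks what age changes in marrow endothelium, and here none of the 10 genes passed (limma, adjusted p = 0.0897 to 0.95; 2 genes, Jag1 and Notch2, had an unadjusted p under 0.05, and limma voom also called 0). Over all genes tested 3.99% were called, 1.2% as higher and 2.8% as lower. Jag1 came closest, with a log2 fold change of -0.42 ± 0.132 (SE, adjusted p = 0.0897). Jag1 and Notch2 were the 2 genes of the 10 whose groups did not overlap, against 35.7% of all genes tested. The median over the 10 was -0.12, beside -0.05 over all genes, and 3 of the 10 had a positive sign. For Dll4 the means were 47.8 ± 0.649 and 44.3 ± 8.37 FPKM (SD, n = 3), a difference of -0.13 with a 95% interval of -0.43 to 0.18 (adjusted p = 0.581).

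The knockout-labelled libraries differ from the young controls in age and label together, and none of the 10 genes passed here either (limma adjusted p = 0.339 to 0.994; 4 had an unadjusted p under 0.05, and limma voom also called 0). Few genes passed at all in this comparison, 0.212% of those tested (0.0848% higher and 0.127% lower). All 10 genes had a positive sign, with a median of 0.23 beside -0.03 over all genes. The groups did not overlap for 4 of them, against 22.4% of all genes tested: Dll1 (log2 difference 0.47 ± 0.144 SE), Dll4 (0.41 ± 0.135), Jag1 (0.36 ± 0.132) and Notch1 (0.28 ± 0.114). These are the genes with the 4 unadjusted p-values under 0.05, at 0.00888, 0.0122, 0.0214 and 0.0323.

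The aged controls differed among themselves in several Notch genes. In 6 of the 10 genes (Dll1, Dll4, Jag2, Notch4, Hes1 and Nrarp) replicate 1 was lowest and replicate 3 highest of the aged controls, an arrangement found in 22.8% of all genes tested. The highest aged control was 4.76 times the lowest for Jag2, 2.53 times for Nrarp, 2.36 times for Notch4 and 1.16 times for Hes1. The coefficient of variation was largest in the aged controls for 6 of the 10 genes, and in the knockout-labelled libraries for Jag1, Notch2, Hes1 and Hey1. The coefficient of variation of Notch4 was 46.1% in the aged controls, 7.80% in the young controls and 22.2% in the knockout-labelled libraries. The 6 arterial markers examined (Sema3g, Bmx, Gja5, Efnb2, Gkn3 and Vegfc) had a summed level of 15.98, 17.49 and 27.79 FPKM in aged controls 1, 2 and 3, 21.95 to 24.08 FPKM in the young controls, and 21.45 to 31.54 FPKM in the knockout-labelled libraries. Sema3g, alone among the arterial markers, was highest in aged control 2. Markers of other cells also differed along the same libraries: aged controls 1, 2 and 3 had 12.36, 80.5 and 271.8 FPKM of the 7 neutrophil markers and 2393, 1356 and 413.5 FPKM of the 7 B-lineage and plasma cell markers. No arterial marker was at 0 in all libraries, and Gkn3 was at 0 in knockout-labelled replicate 3. The part of arterial or other cells in these values was not tested.

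Set against Cdh5, the gene of VE-cadherin by which the cells were marked, the 4 genes kept their pattern within each library. Cdh5 itself was not called between the knockout-labelled libraries and the aged controls (log2 difference 0.03, limma adjusted p = 0.85). Jag1 came to 12.9%, 12.0% and 11.6% of the Cdh5 level for the young controls, 9.36%, 8.72% and 11.3% for the aged controls, and 19.5%, 15.2% and 15.8% in the knockout-labelled libraries. In the same order of groups, Dll4 came to 26.7% to 28.6%, 22.2% to 32.1% and 37.1% to 42.8% of it, Dll1 to 7.99% to 10.8%, 6.37% to 9.35% and 12.5% to 14.7%, and Notch1 to 7.48% to 8.55%, 6.39% to 8.17% and 10.2% to 10.8%. For each of the 4, set against Cdh5, the knockout-labelled libraries were above all 6 controls (exact permutation p = 0.1, two-sided, the smallest possible). These 4 genes are given because their FPKM already lay above all 6 controls. Cdh5 ranged only from 153.15 to 176.54 FPKM, so the result largely repeats the FPKM values and is no separate support. Cdh5 was the only reference used. The pan-endothelial marker Erg fell with age (log2 difference -0.60, limma adjusted p = 0.0447). It was 0.44 higher in the knockout-labelled libraries than in the aged controls (adjusted p = 0.0952). There Pecam1, Kdr, Tek and Emcn were 0.15 to 0.25 higher and Tie1 0.04 lower, none called. Ratios to these markers were not examined. Jag1 is also made by stromal and perivascular cells. The 7 stromal, osteoblast and fat cell markers summed to 76.88 to 106.2 FPKM in the young controls, 40.34 to 48.92 FPKM in the aged controls and 35.13 to 46.68 FPKM in the knockout-labelled libraries. The 5 smooth muscle and pericyte markers summed to 10.02 to 13.53, 3.09 to 6.70 and 1.26 to 7.20 FPKM in the same order. Both sums were thus higher in the young than in the aged controls, as Jag1 was, and overlapped between the aged controls and the knockout-labelled libraries. Single markers did not all follow the sum. Ibsp had 3.66 to 4.56 FPKM in the aged controls, against 8.06 to 10.98 FPKM in the knockout-labelled libraries, and was not called (limma adjusted p = 0.0924). Adipoq had 5.53 to 6.72 against 3.33 to 4.55 FPKM and was called (limma adjusted p = 0.0389). The part of these cells in the Jag1 values was not tested. Bglap was at 0 in young control replicate 2, aged control replicate 1 and knockout-labelled replicates 1 and 2, and Cspg4 in aged control replicate 3.

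The rest of the pathway, 66 genes listed by role, was mostly present and mostly without a call. Of these, 50 had a mean of at least 1 FPKM and were tested. Between the knockout-labelled libraries and the aged controls 1 rose and none fell, with a median of 0.06, and with age none rose and 3 fell, with a median of -0.06. Over all genes tested, 2.78% were higher in the first of these comparisons and 2.8% lower in the second: 1 of 50 lies below the first share and 3 of 50 above the second. Between the knockout-labelled libraries and the young controls none was called by limma at an adjusted p under 0.05. Numb, an adaptor that restrains the receptor, was called in 2 comparisons. It was at 32.52, 31.25 and 33.01 FPKM in the young controls, 25.61, 25.54 and 24.91 FPKM in the aged controls, and 32.96, 32.44 and 33.68 FPKM in the knockout-labelled libraries. The aged controls were below all others, with little spread in any group. Numb fell with age by 0.34 ± 0.0749 on the log2 scale (SE, limma adjusted p = 0.0435), and was higher by 0.37 ± 0.0749 in the knockout-labelled libraries than in the aged controls (adjusted p = 0.0259). With 1 library left out, these calls held in 3 and 4 of 9 fits.

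Adam10, the protease that makes the first cut in the activated receptor, was at 54.75, 53.09 and 54.97 FPKM in the young controls, 36.82, 38.44 and 31.12 FPKM in the aged controls, and 48.50, 39.07 and 49.42 FPKM in the knockout-labelled libraries. It fell with age by 0.61 ± 0.115 on the log2 scale (SE, limma adjusted p = 0.0355). The knockout-labelled libraries lay between the other groups without overlap, 0.35 above the aged controls on the log2 scale (adjusted p = 0.103). Spen, a large co-repressor that binds RBPJ, was at 5.70, 5.86 and 5.80 FPKM in the young controls and 3.90, 4.28 and 3.18 FPKM in the aged controls, and fell by 0.51 ± 0.111 (SE, adjusted p = 0.0418). With 1 library left out, the calls of Adam10 and Spen held in 4 and 3 of 9 fits. Adam17, a related protease, and the gamma-secretase genes Psen2, Ncstn, Aph1a and Psenen were not called by limma in any comparison.

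**Figure D4:**
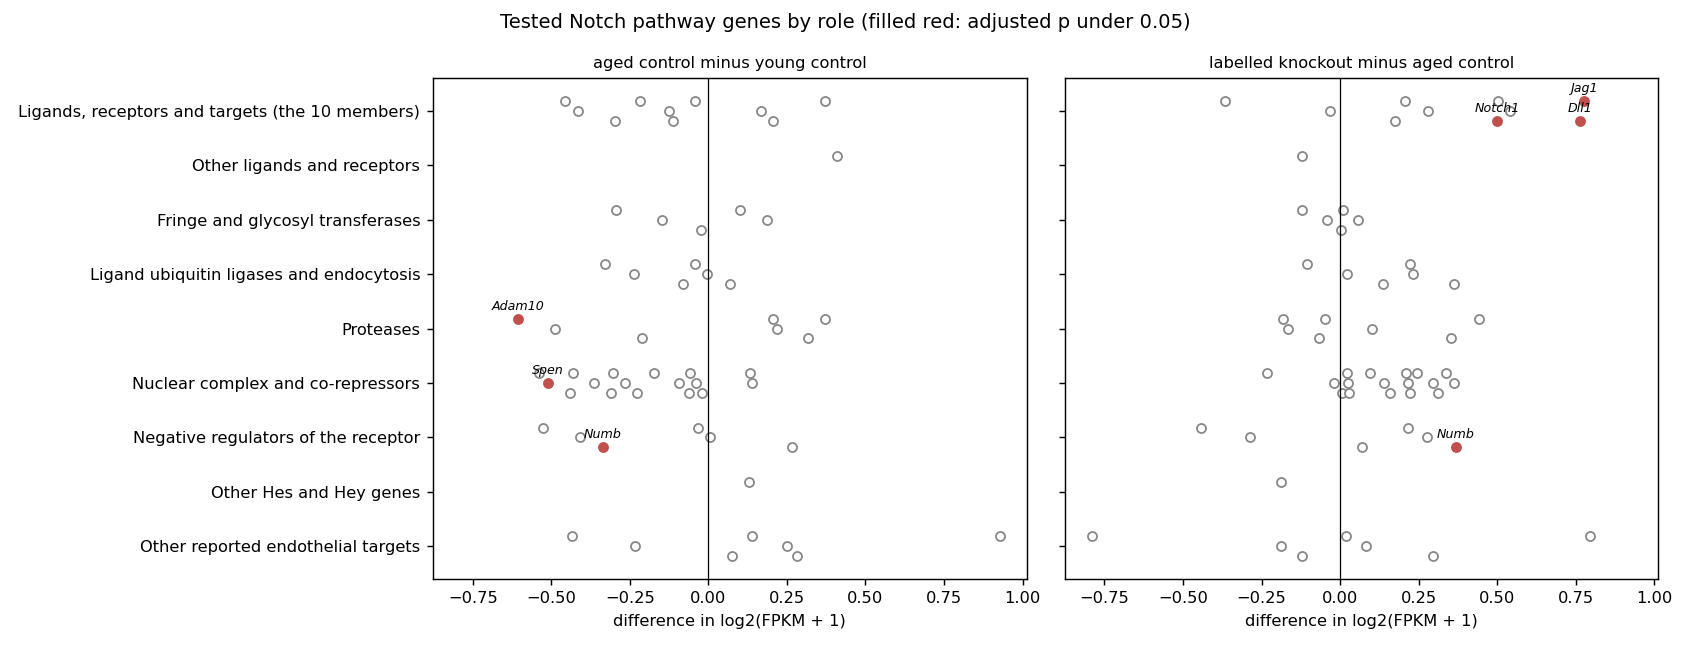
Difference in log2(FPKM + 1) of the 10 Notch genes and of the 50 tested genes of the rest of the pathway, by role, between aged and young controls (left) and between the knockout-labelled libraries and the aged controls (right); each point is 1 gene, and filled red points passed an adjusted p of 0.05. With age the passing genes are Adam10, Spen and Numb, all lower, and on the right they are Jag1, Dll1, Notch1 and Numb, all higher.

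Several Notch genes were barely read in these cells. The receptor Notch3, known from smooth muscle and pericytes, was at 0.11 to 0.64 FPKM, the ligand Dll3 at 0 to 0.05 FPKM, and the arterial target genes Hey2 and Heyl at 0.01 to 0.11 and 0.17 to 0.84 FPKM, all below the filter and not tested. Of the 7 other Hes and Hey genes, Hes6 alone was tested, at 11.49 to 17.66 FPKM. Rbpj, the nuclear partner of all Notch receptors, was at 3.35, 3.26 and 3.36 FPKM in the young controls, 2.67, 2.53 and 2.33 FPKM in the aged controls, and 2.98, 2.69 and 2.94 FPKM in the knockout-labelled libraries, with no overlap between the groups and no call (limma adjusted p = 0.1, 0.428 and 0.666 for aged against young, labelled knockout against aged and labelled knockout against young). The modifying enzyme Lfng, which tunes the receptor's response to its ligands, was at 32.16 to 69.42 FPKM and was not called, nor was any of the 5 glycosyl transferases. Egfl7, a secreted endothelial protein that can bind Notch, was at 76.33 to 157.79 FPKM, with the highest value in aged control replicate 3. Dnm2, a dynamin used in ligand endocytosis, was at 47.29 to 65.07 FPKM, and the receptor Flt1, taken as a reported endothelial target, at 23.92 to 35.58 FPKM. Neither was called. The 7 reported endothelial targets listed beyond the 10 genes, Flt1 among them, went both ways between the knockout-labelled libraries and the aged controls, with none called and a median of 0.02. Their extremes, named here after their values were seen, were the arterial ephrin Efnb2 and the gap junction gene Gja4. Efnb2 had 5.32, 6.09 and 9.50 FPKM in the aged controls, against 13.46, 9.58 and 15.10 FPKM in the knockout-labelled libraries (log2 difference 0.80, limma adjusted p = 0.06). Gja4 had 18.16, 18.52 and 38.21 FPKM in the aged controls, against 9.81, 14.38 and 16.02 FPKM in the knockout-labelled libraries (log2 difference -0.79, limma adjusted p = 0.113). The groups did not overlap in either gene.

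Across the 9 libraries, the genes whose log2(FPKM + 1) was most like that of Jag1 were Dip2c (Pearson r = 0.985) and 9930111J21Rik2 (r = 0.974). For Dll1 they were Pcnx (r = 0.981) and Mars1 (r = 0.966), and for Notch1 they were Fgfr1 (r = 0.971) and Gm42929 (r = 0.962). These are the highest values over all genes tested, from 9 libraries that share their group differences, and are given as a description.

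**Figure D5:**
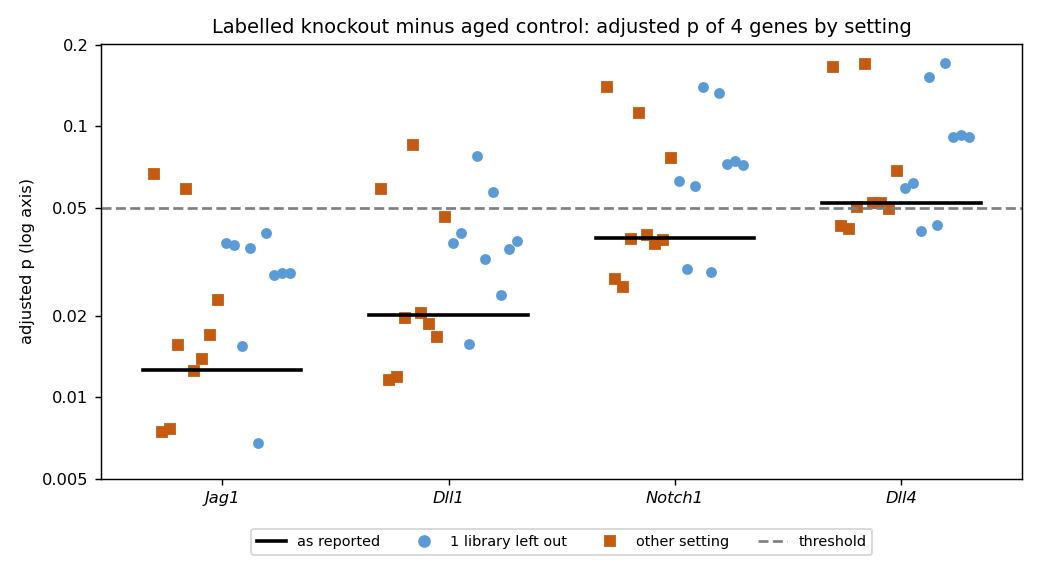
Adjusted p (log axis) of Jag1, Dll1, Notch1 and Dll4 between the knockout-labelled libraries and the aged controls, under the reported fit (black line), each fit that left out 1 library (blue circles) and each other setting (orange squares), with the threshold of 0.05 dashed. All 9 blue circles of Jag1 lie under the threshold, while 7 of the 9 of Notch1 lie above it.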

How the data were processed

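Endothelial RNA of 9 libraries was converted to libraries with a low-input full-length cDNA kit, per the labels' protocols. The authors deposited FPKM values rounded to 2 decimals. The submitters' processing notes name FastQC 0.11.5, STAR, edgeR and the builds GRCm38 and mm10, but no role for each, and how reads were counted or assigned to a strand is not given in the sources used here. Depth was recovered from whole-fragment steps in genes of 60 to 400 bases (99.4% to 99.7% of values whole within 0.1), with exon lengths from GENCODE M21 on GRCm38, which matched all 52183 genes. No pair of libraries was identical.

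Values were tested as log2(FPKM + 1) with limma 3.58.1 in R 4.3.3, with 1 mean per group over all 9 libraries, eBayes with a trend, a filter of a mean of at least 1 FPKM and Benjamini-Hochberg adjustment, a call being an adjusted p under 0.05. This scale understates changes of low genes. The fit was tested on simulated data. Intervals are limma's 95% intervals, and ± is an SD or SE as named. Besides the 10 genes, pathway genes were named when called, or as the most abundant of a role without a call, with Notch3, Dll3, Hey2, Heyl and Rbpj always, and the 2 genes most correlated with each called member. Members and lists were chosen with earlier results of these data known. Alternatives were pseudocounts of 0.1 and 5 FPKM, no filter or one of 5 FPKM, median-ratio and quantile scaling, the compared groups alone, the replicate block and each library left out; limma voom on recovered fragments was added after the data were seen. Figures used matplotlib 3.10.9 in Python 3.11.15.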

Additional observations from a re-analysis of the deposited data

How the results depend on the processing

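The counts of genes called depended on single libraries. With 1 library left out, the calls over all genes ran from 5 to 1039 with age (471 as reported; 5 without young control replicate 1, 1039 without knockout-labelled replicate 2), from 197 to 1159 between the knockout-labelled libraries and the aged controls (565; lowest without knockout-labelled replicate 1, highest without replicate 2), and from 11 to 31 between the knockout-labelled libraries and the young controls (25). The 3 Notch calls between the knockout-labelled libraries and the aged controls ran from 1, without knockout-labelled replicate 1 or 3, to 4, without aged control replicate 3 or knockout-labelled replicate 2. In the other 2 comparisons 0 of the 10 genes were called under every setting run.

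Without the filter on low values the calls over all genes were 39, 146 and 15 in the comparisons of aged with young, knockout-labelled with aged and knockout-labelled with young, and 0 of the 10 Notch genes were called. Fits of the compared groups alone gave 716 and 149 in the first 2, and again 0 Notch genes. A filter of 5 FPKM gave 12 genes in the last. Median-ratio scaling turned the split with age from 141 higher and 330 lower into 215 and 200, and quantile normalization into 160 and 199. With the replicate block, the calls with age were 183 and the Notch calls 2, since Notch1 was lost (adjusted p = 0.0764). The replicate numbers share no stated litter or day. Deviations of same-numbered libraries correlated at -0.13 to 0.12, and a library correlated best with its own number in 7 of 18 cases. The numbers were thus not taken as a pairing, though such correlations cannot exclude one. Of the changes of call among the 10 genes, 16 were losses and 6 gains, with no reversal, out of 528 alternatives. Most of these alternatives belong to genes and comparisons without a reported call, where no loss is possible. Between the knockout-labelled libraries and the aged controls, Jag1 kept its call in 16 of 18 alternatives, Dll1 in 14 and Notch1 in 8. The cause of the changes of call was not tested. As to depth, Hey1 and Nrarp rest on the fewest fragments of the 10 genes (124 to 398 and 86 to 241 per library).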
